A study of Homo sapiens with 6 samples.

Results

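The globin genes are the hemoglobin chain genes HBA2, HBB, HBD, HBE1, HBM, HBQ1 and HBZ, with the related genes CYGB (cytoglobin) and MB (myoglobin). They were measured here in BxPC-3 xenografts after deferasirox. A probe was a member when the array named it for 1 of these 9 symbols, which gave 15 of the 50599 probes, on 24 of the 58717 spots that are not controls. The genes were chosen by family with their normalized log2 intensities in the treated and the control tumors already known, so the difference between the groups is described here for them and carries no test.

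BxPC-3 is an established human pancreatic cancer cell line that forms tumors when it is grown under the skin of immunodeficient mice. Young female BALB/c nu/nu mice carried the tumors, and treatment began at a tumor volume of 150 mm3. Deferasirox (DFX), an oral iron chelator, was given by gavage at 200 mg/kg in 3 treatments per week for 21 days, and control mice received the vehicle. Total RNA from 3 control and 3 DFX tumors was labelled with a single dye and hybridized to 60-base human probes. All 6 arrays lay on 1 slide, the controls in 1 row and the DFX tumors in the other, so slide row and treatment cannot be told apart. The labels do not say whether each tumor came from a different mouse. The spread between arrays is therefore one between tumors, which may not all be from separate animals. The share of probes flagged well above background ran from 50.3% on the DFX 2 array to 56.5% on that of control 1.

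Hemoglobin is built from paired alpha-like and beta-like chains, each of which holds a heme group whose iron binds oxygen. The alpha-like genes (HBZ, HBM, HBA2 and HBQ1) form a cluster on chromosome 16 and the beta-like genes (HBE1, HBD and HBB) a cluster on chromosome 11, and members of both are switched on in turn from the embryo to the adult. Red cell precursors make nearly all of it, myoglobin stores oxygen in muscle, and cytoglobin is found in many cells, fibroblasts among them. Red cells in the vessels of a xenograft are those of the mouse host, while the tumor cells are human. Which species' RNA bound the human globin probes was not tested, because no mouse sequence was used here.

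The probe sequences are printed first, since they show which stretch of each transcript the later values describe and which probes share bases. The bright HBA2 probes and a probe each of the alpha-like genes HBZ and HBM all read the end of the coding sequence. The capitals mark TACCG, 1 further base and the stop codon, and the HBM probe is given by its first 30 bases.
HBA2 A_23_P26457: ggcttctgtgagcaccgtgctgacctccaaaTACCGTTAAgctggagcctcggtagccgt
HBA2 A_33_P3258362: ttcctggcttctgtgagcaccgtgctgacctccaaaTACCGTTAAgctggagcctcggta
HBZ A_21_P0011413: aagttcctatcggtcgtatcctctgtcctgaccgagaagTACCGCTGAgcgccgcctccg
HBM A_33_P3326235: gaaaaaTACCGCTGAgccctgtgctgcgca

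The bright HBA2 probes are the same stretch shifted by 5 bases, and they share a run of 55 bases, so they are not independent measurements of the gene. HBA1 encodes the same protein as HBA2 and is nearly identical in sequence. No probe carried the name HBA1, so signal on the HBA2 probes cannot be assigned to either gene. Aligned at the capitals, the HBZ probe matched the HBA2 probe A_33_P3258362 at 32 of 57 bases (56.1%), and the HBM stretch matched it at 16 of 30 (53.3%).

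A further HBA2 probe reads the other end of the transcript, and its capitals mark the start codon. The HBD probe and the brighter MB probe lie inside coding sequence and are shown because HBD was the other globin gene with a large difference and MB, of the globin probes with signal on each array, the most variable one after HBB.
HBA2 A_24_P142305: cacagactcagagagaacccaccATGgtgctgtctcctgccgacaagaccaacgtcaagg
HBD A_24_P75190: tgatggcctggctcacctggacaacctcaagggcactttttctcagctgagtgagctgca
MB A_33_P3303649: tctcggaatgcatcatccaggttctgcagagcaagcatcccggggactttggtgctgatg

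Of the 15 globin probes, 9 were well above background on all 6 arrays, and they covered 8 of the 9 genes (every gene but HBE1). A further 5 were well above background on no array. The detection filter, which asked for a detection p-value under 0.05 on every array (the median over the spots of a probe), kept 12 globin probes and 31803 probes in all. By limma, an unadjusted p under 0.05 was reached by 3 of the 12 tested globin probes, both bright HBA2 probes and the HBD probe, beside 8.41% of all 31803 probes. All 3 were lower in the DFX tumors, beside 4.95% of all tested probes in that direction and 3.47% in the other. The same 3 probes had no overlap between the groups, beside 15.5% of all probes (9.15% lower and 6.34% higher). With Benjamini-Hochberg adjustment over all probes, limma called 0 globin probes and 0 probes of the whole array. The adjusted call depended on the setting: both bright HBA2 probes passed it in 6 of 20 alternatives (median scaling, normexp correction, the raw mean signal, both filters on the well-above-background flag and array quality weights). The choice of genes used this contrast, and nothing is read from these counts.

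HBA2, an adult alpha chain, showed the largest difference of the globin genes. Probe A_23_P26457 is annotated at chr16:223560-223619 on the plus strand (hg19). On the normalized log2 intensity scale it read 12.44, 12.67 and 12.27 in control tumors 1 to 3, and 10.47, 10.53 and 10.59 in DFX tumors 1 to 3. Every control tumor was above every DFX tumor, and the 3 DFX tumors lay close together. The means were 12.46 ± 0.20 and 10.53 ± 0.06 (SD, n = 3 each), a log2 difference of -1.93 (SE 0.13), or 3.81-fold lower in the DFX tumors. In bulk tumors, fewer cells of a type and less RNA per cell cannot be told apart.

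The shifted HBA2 probe A_33_P3258362, at chr16:223555-223614, gave the same picture. It read 12.34, 12.63 and 12.19 in the controls and 10.30, 10.47 and 10.42 with DFX. Here too the groups did not overlap, with control 2 the highest and DFX 1 the lowest. The log2 difference was -1.99 (SE 0.14), or 3.97-fold lower with DFX. Before normalization, processed intensities of A_23_P26457 were 5435, 5876 and 6202 in the controls and 1336, 1382 and 1577 with DFX, so the separation was there on the unnormalized scale as well.

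The probe at the start of the HBA2 transcript, A_24_P142305 at chr16:222889-222948, was near background. It read 4.44, 3.66 and 3.86 in the controls and 3.42, 3.44 and 3.73 with DFX. The groups overlapped, and the probe was well above background on control 1 alone. It passed the detection filter but was well above background on no DFX array, so no fold is given. The separation of the groups described for HBA2 rests on probes at its 3′ end.

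**Figure D1:**
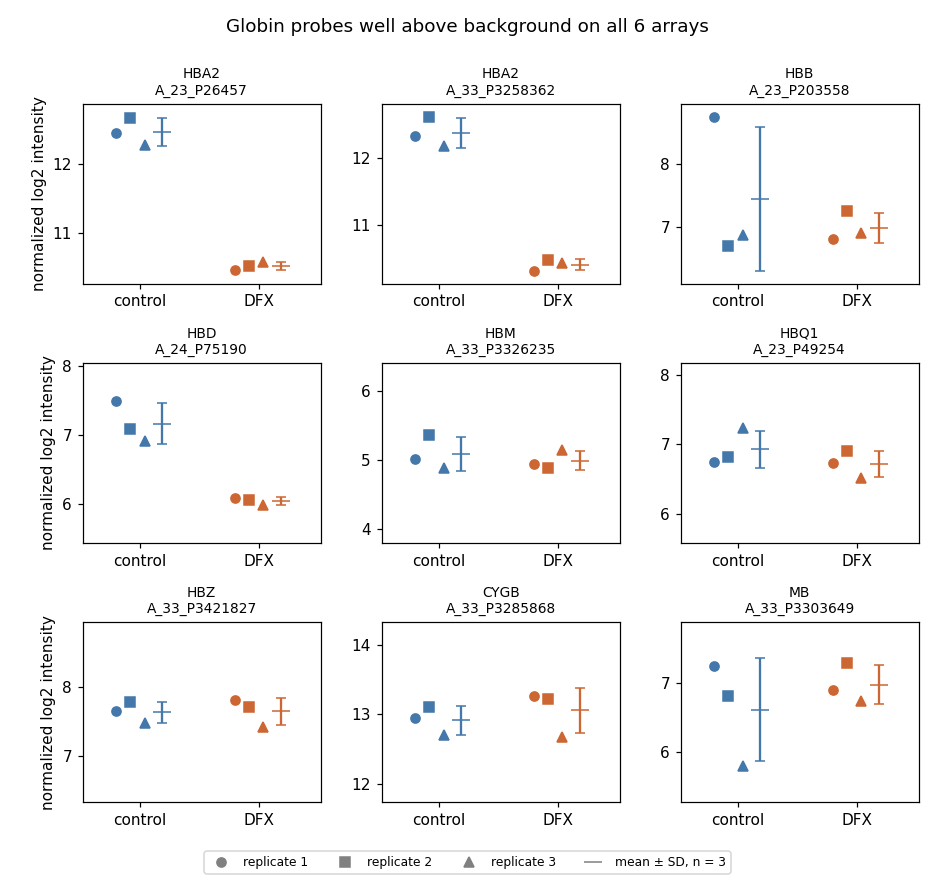
Normalized log2 intensity of the 9 globin probes well above background on all 6 arrays, 1 symbol per tumor, with the mean ± SD of each group (n = 3) as a bar and a level of its own for each panel. The 2 bright HBA2 probes and HBD separate the control from the DFX tumors, HBB has 1 high control tumor, and the groups overlap in the other panels.

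HBD, the delta chain of the minor adult hemoglobin, was the other globin gene without overlap. Its probe A_24_P75190 lies at chr11:5255258-5255317 on the minus strand (hg19). It read 7.49, 7.08 and 6.92 in the controls and 6.09, 6.06 and 5.99 with DFX. The DFX tumors again lay close together, below all control tumors. The means were 7.16 ± 0.30 and 6.05 ± 0.05 (SD, n = 3 each), a log2 difference of -1.12 (SE 0.17), or 2.17-fold lower with DFX. The size depended on how background was treated, and it was -0.67 with normexp correction and -0.63 on the raw mean signal, which keeps the background. Processed intensities were 181, 126 and 135 in the controls and 65.6, 63.1 and 69.6 with DFX. How far this HBD probe also binds HBB RNA was not measured.

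Among the 24360 tested probes that were well above background on all 6 arrays, 53 (0.218%) were at least 2-fold lower in the DFX tumors, and the 3 globin probes were among them. Ranked by the size of the fall, the bright HBA2 probes stood at places 3 and 5 and HBD at place 36. These places describe the contrast that chose the genes.

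HBB encodes the beta chain that pairs with alpha in adult hemoglobin, and its groups overlapped. Probe A_23_P203558, in the 3′ untranslated region at chr11:5246718-5246777 (hg19), was printed on 10 spots. Averaged over them it read 8.76, 6.69 and 6.86 in the controls and 6.80, 7.26 and 6.89 with DFX. Control 1 was far above the other 5 tumors, which overlapped. The means were 7.44 ± 1.15 and 6.98 ± 0.24 (SD, n = 3 each), and the log2 difference of -0.45 (SE 0.56) was smaller than its error.

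Control 1 decided the direction of that difference. It stood 3.94-fold above the mean of controls 2 and 3. Without it the log2 difference was 0.20, and without control 2 it was -0.83. The high value was present on all of its spots, which in control 1 lay between 405 and 461 on the processed intensity scale, and no spot of any other array was over 168. Between spots of an array the SD was 0.06 to 0.17 on the log2 scale.

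**Figure D2:**
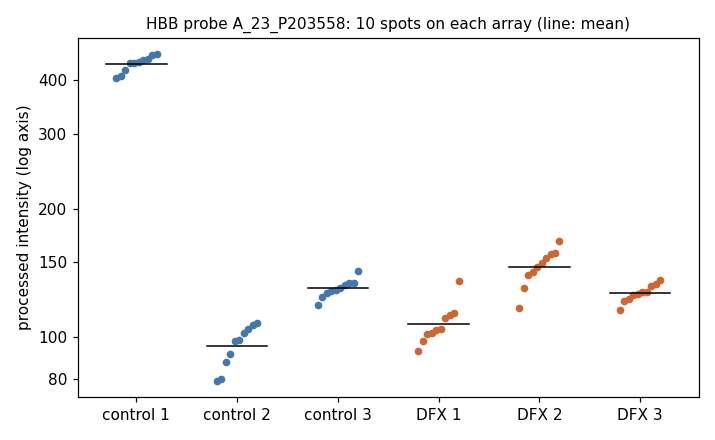
Processed intensity, on a log axis, of the 10 spots of HBB probe A_23_P203558 on each array, 1 point per spot with a line at the mean. The spots of control 1 lie between 405 and 461, and those of the other 5 arrays lie at or below 168.

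The same tumor stood apart in S100A8 and S100A9. S100A8, a calcium-binding protein abundant in neutrophils, read 14.37 in control 1 on the log2 scale, 9.44 and 10.92 in the other controls, and 11.58 to 11.84 in the DFX tumors. Its partner S100A9 read 12.46 in control 1, and 10.46 to 11.43 in the other 5 tumors. The other tested leukocyte markers did not set control 1 apart in this way. CD14 read 10.46 in control 1 and 10.01 to 10.47 in the other 5 tumors, and CD68 read 9.46 and 9.34 to 9.53. CD79A read 12.17 and 11.38 to 12.07, and the brightest PTPRC probe was lowest in control 1, at 6.48. Of the leukocyte markers listed, 9 of 15 were tested. By the brightest probe, 0 passed limma's unadjusted p under 0.05, beside 7.91% of all genes (0 after Benjamini-Hochberg adjustment, as over the whole array). With so few genes, nothing is read from this count. The summed normalized intensity of the tested leukocyte markers, on the linear scale, was 8379 to 33755 in the controls and 10874 to 12411 with DFX. This sum weighs bright genes most, and S100A8 was the brightest of them in control 1. Control 1 was also the highest tumor for HBD and for the dim HBA2 probe A_24_P142305, while control 2 was the highest for both bright HBA2 probes. Neither the part of leukocyte content in the HBB value nor the species whose RNA bound these marker probes was tested.

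A second HBB probe, A_33_P3289150, was well above background on no array and read between 2.11 and 2.26 in all 6 tumors, too low to be tested.

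The remaining alpha-like genes showed no separation of the groups. HBQ1, the theta chain gene at the end of the alpha cluster, read 6.74, 6.82 and 7.23 in the controls and 6.73, 6.90 and 6.52 with DFX (probe A_23_P49254, chr16:230574-230717). Control 3 was highest and DFX 3 lowest, with the rest interleaved, and the log2 difference was -0.21 (SE 0.18). HBM, the mu chain gene, read 5.02, 5.36 and 4.89 in the controls and 4.94, 4.89 and 5.15 with DFX (probe A_33_P3326235, chr16:216693-216752). Its groups overlapped almost completely, with a log2 difference of -0.10 (SE 0.16).

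HBZ, the embryonic zeta chain gene, was covered by 3 probes of which 1 was bright. Probe A_33_P3421827, in the 3′ untranslated region at chr16:204445-204504, read 7.65, 7.78 and 7.48 in the controls and 7.81, 7.71 and 7.43 with DFX. The groups were interleaved, and the log2 difference of 0.01 had an SE of 0.15. The other HBZ probes, A_21_P0011413 and A_33_P3252534, were well above background on no array, with values of 2.66 to 3.62 and of 1.84 to 2.99 over the 6 tumors and overlapping groups. The first of these is the probe set beside HBA2 above, and it too spans the stop codon of its gene.

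HBE1, the embryonic epsilon chain gene, did not pass the detection filter. Its probe A_23_P47665 read 1.90 to 3.39 in the controls and 1.91 to 3.18 with DFX and was well above background on no array.

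The globins of other tissues also showed no separation. CYGB was measured by probe A_33_P3285868, in the 3′ untranslated region at chr17:74523461-74523520, which read 12.95, 13.11 and 12.69 in the controls and 13.27, 13.22 and 12.67 with DFX. The groups overlapped, and their means of 12.92 ± 0.21 and 13.05 ± 0.33 (SD, n = 3 each) differed by 0.14 (SE 0.20) on the log2 scale. MB, by probe A_33_P3303649 at chr22:36003427-36003486, read 7.24, 6.81 and 5.80 in the controls and 6.90, 7.28 and 6.74 with DFX. Control 3 was the low tumor, and the log2 difference of 0.36 (SE 0.38) became -0.05 without it and 0.67 without control 1. A second MB probe, A_24_P917178, was well above background on no array and was not tested.

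**Figure D3:**
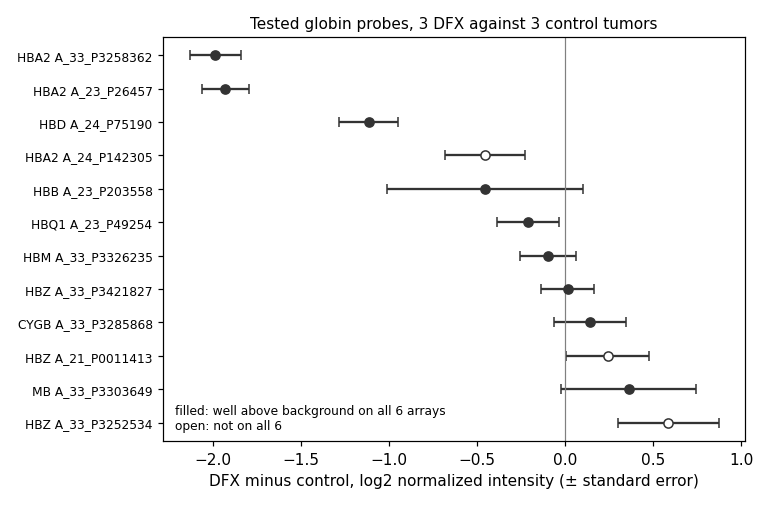
Log2 difference (DFX minus control) of the tested globin probes, with bars of 1 SE from the limma fit of 3 control and 3 DFX tumors. The bright HBA2 probes lie near -2 and HBD near -1.1, and the other probes lie closer to 0 with wider errors for HBB and MB. Open symbols are probes not well above background on all 6 arrays, whose differences are not read as folds.

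Over the 12 tested probes, 7 were lower and 5 higher in the DFX tumors, and the median log2 difference was -0.16, beside -0.02 over all tested probes. When each array was left out in turn, the log2 difference of HBA2 A_23_P26457 ranged from -2.03 to -1.83, that of A_33_P3258362 from -2.09 to -1.87 and that of HBD from -1.24 to -0.95. For HBB, HBM, HBZ and MB the difference crossed 0.

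Some tumors shared a column of the slide, which allows a comparison of control and DFX within it. In column 2, DFX 2 lay below control 1 by a log2 difference of -1.91 for HBA2 A_23_P26457, -1.43 for HBD and -1.50 for HBB. In column 4, DFX 3 against control 3 gave -1.69 for HBA2, -0.93 for HBD and 0.03 for HBB. HBA2 and HBD were lower with DFX in both columns, and HBB in the column that held control 1.

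**Figure D4:**
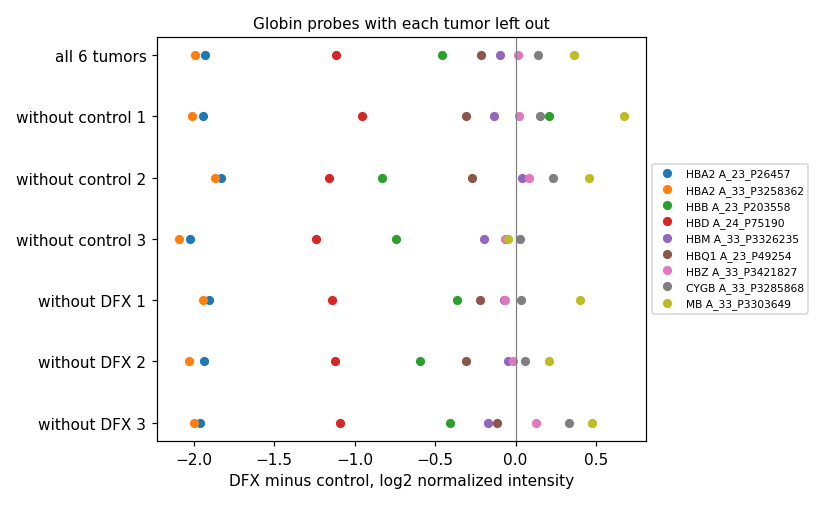
Log2 difference (DFX minus control) of globin probes with all 6 arrays and with each array left out in turn, 1 point per setting. HBA2 stays between -2.09 and -1.83 and HBD between -1.24 and -0.95, while HBB runs from -0.83 to 0.20 and MB from -0.05 to 0.67.

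Across the 6 arrays the members divided in the same way. Pearson's r with the brightest HBA2 probe was 0.999 for its shifted neighbour and 0.95 for HBD, and it was 0.42 for HBQ1, 0.40 for HBM and 0.30 for HBB. CYGB had an r of -0.26 and MB of -0.30. These values rest on 6 arrays in groups of 3, and for genes that separate the groups they mostly restate that separation.

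The genes whose 6 values were most like those of HBA2, among 24351 other probes well above background on all arrays, were MPP6, a membrane scaffold protein (r 0.994), PARP8, a member of the ADP-ribosyltransferase family (0.993), ALDH3B1, an aldehyde dehydrogenase (0.989), NCOR1, a nuclear receptor corepressor (0.988), and the long non-coding transcript XLOC_013559 (0.987). All 5 were lower in the DFX tumors, and by less than HBA2. MPP6 had the largest log2 difference of them, -0.64 (SE 0.11), and PARP8 the smallest, -0.23 (SE 0.09).

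Other globin genes outside the set were on the array as HBG1, HBBP1 and NGB. HBG1, a fetal gamma chain gene, read 7.78, 7.73 and 7.78 in the controls and 8.05, 7.79 and 7.77 with DFX on its brightest probe, a log2 difference of 0.11 (SE 0.12) with overlapping groups. The beta-like pseudogene HBBP1 and the neuronal globin gene NGB were well above background on no array.

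Defining genes of the red cell lineage were dim or showed overlapping groups on their brightest probe. A dimmer SLC4A1 probe without overlap is described further below. AHSP, the chaperone of free alpha chains, and GATA1, the master transcription factor of the lineage, were well above background on no array. ALAS2, the first enzyme of heme synthesis in red cell precursors, read 3.59, 3.87 and 4.54 in the controls and 3.70, 2.09 and 3.62 with DFX, and was well above background on 1 control array. SLC4A1, the band 3 anion exchanger of the red cell membrane, read 5.80, 6.27 and 6.12 in the controls and 5.80, 6.05 and 6.54 with DFX on its brightest probe, with overlapping groups. KLF1, an activator of adult beta-globin, differed by -0.20 (SE 0.15) on the log2 scale, and its groups overlapped.

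Taking the brightest tested probe of each gene, 40 of the 53 listed erythroid genes other than globins were tested, and 4 passed limma's unadjusted p under 0.05, beside 7.91% of 23807 genes. Of these, 1 was lower and 3 were higher in the DFX tumors, beside 4.28% and 3.63% of all genes, while 5 of the 40 had no overlap, beside 15.4% of all genes. Without DFX 1 the count of 4 fell to 2. The median log2 difference of the 40 genes was 0.05, and its sign was not stable, with -0.05 under median scaling and -0.03 when the tested probes of a gene were averaged.

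The direction of the calls rested on the choice of the brightest probe. When a gene counted as called through any tested probe, 8 of the 40 genes were called, 5 lower and 3 higher, beside 10.6% of all genes (6.3% lower and 4.36% higher). The genes added were all lower, each without overlap between the groups: SPTB, a spectrin of the membrane skeleton (-1.14, SE 0.44), OSBP2, an oxysterol-binding protein (-0.99, SE 0.33), BCL11A, a repressor of fetal globin (-0.69, SE 0.10), and SLC4A1 (-0.56, SE 0.16). Each of these probes was well above background on all control arrays and on 1 or 2 of the DFX arrays. On the brightest probe of the same genes the log2 difference was 0.80 for SPTB, 0.14 for BCL11A and 0.07 for SLC4A1. It was -0.20 for OSBP2, and none of these brightest probes was called.

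By the brightest probe, BPGM, which makes the 2,3-bisphosphoglycerate that lowers the oxygen affinity of hemoglobin, was lower by -0.37 (SE 0.11, limma with Benjamini-Hochberg adjusted p = 0.514). The genes that were higher were AQP1, a water channel of red cells and endothelium (0.75, SE 0.20), LMO2, a cofactor of blood and endothelial cells (0.63, SE 0.14), and CA1, a carbonic anhydrase of red cells and gut epithelium (2.74, SE 0.94), with adjusted p of 0.513 to 0.557 by limma. ANK1, which ties the membrane to its skeleton, and the blood group protein gene ERMAP did not overlap between the groups and were not called (0.25, SE 0.12 and -0.16, SE 0.11). The groups overlapped for CA1, at 2.74, 5.14 and 1.98 in the controls and 6.10, 7.09 and 4.89 with DFX. CA1 was well above background on all DFX arrays but on only 1 control array, so its difference is not read as a fold.

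By role, the counts stand beside 7.91% of all genes called by the brightest probe (4.28% lower and 3.63% higher). By any probe the shares were 10.6%, 6.3% and 4.36%. With lists this short, nothing is read from the counts. The red cell membrane and cytoskeleton list had 10 of 17 genes tested (median log2 difference 0.23). Of these, 0 were called lower and 1 higher by the brightest probe, and 2 lower and 1 higher by any probe. Heme and hemoglobin assembly had 10 of 13 genes tested and 0 called by limma at an unadjusted p under 0.05 (median 0.03). After adjustment it also had 0 called, as did the whole array. Erythroid transcription factors and receptors had 9 of 11 tested, 0 lower and 1 higher by the brightest probe, and 1 lower and 1 higher by any probe (median 0.08). Red cell enzymes and late genes had 11 of 12 tested, 1 lower and 1 higher by the brightest probe, and 2 lower and 1 higher by any probe (median -0.17).

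Among genes that clear hemoglobin and break heme down, 7 of 8 were tested and 3 were called at an unadjusted p under 0.05, 1 lower and 2 higher, beside 7.91% of all genes by the brightest probe (4.28% lower and 3.63% higher). HP encodes haptoglobin, the plasma protein that binds free hemoglobin, and it read 10.38, 11.19 and 10.97 in the controls and 12.69, 12.98 and 12.51 with DFX. Every DFX tumor was above every control tumor, with a log2 difference of 1.88 (SE 0.24, limma with Benjamini-Hochberg adjusted p = 0.504). HMOX1, the inducible heme oxygenase, was higher by 0.36 (SE 0.11, adjusted p = 0.546 by limma), and BLVRA, which reduces biliverdin to bilirubin, was lower by -0.37 (SE 0.11, adjusted p = 0.526 by limma). These differences were each larger than the spread between tumors of a group and none passed the adjustment over all probes.

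**Figure D5:**
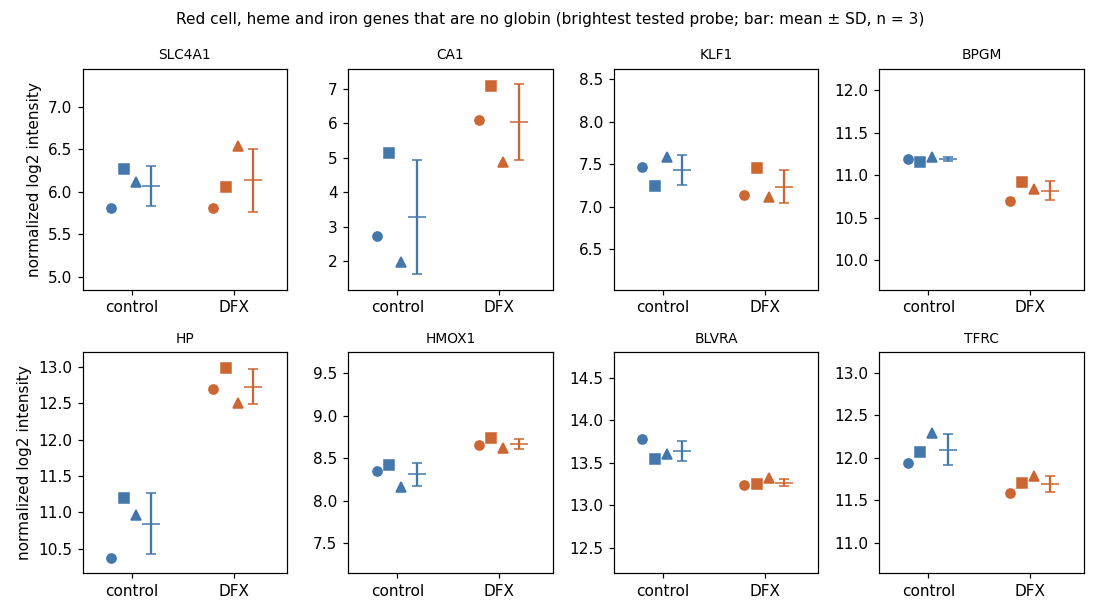
Normalized log2 intensity of red cell, heme and iron genes on each of the 6 arrays, 1 symbol per tumor, with the mean ± SD of each group (n = 3) as a bar. HP and HMOX1 are higher and BLVRA, BPGM and TFRC lower in all 3 DFX tumors than in any control, and the groups overlap for SLC4A1, CA1 and KLF1.

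Human probes for markers of the other cell types that a tumor can hold moved in part with the groups. Their counts, by the brightest probe, stand beside 7.91% of all genes called in either direction. Of 9 tested endothelial genes out of 14 listed, 2 were lower (ENG and TIE1) and 1 higher (PECAM1, log2 difference 1.27, SE 0.19), and their summed normalized intensity was 1185 to 1595 in the controls and 1174 to 1270 with DFX. Of 9 tested fibroblast genes out of 12 listed, 2 were lower (DCN by -1.30 and PDGFRA by -1.12 on the log2 scale) and 1 higher (LUM), with FBLN1 a further lower gene on another probe and with sums of 27806 to 31021 and 21969 to 23373 that did not overlap. Of 10 BxPC-3 epithelial genes, 3 were higher (EPCAM, KRT8 and KRT18), with sums of 650849 to 670598 and 681642 to 693852. Platelet genes had 1 of 5 tested called lower (ITGA2B, near background), skeletal muscle genes 1 of 12 (TNNI1), and oxygen-responsive genes 1 of 14 (TFRC, the transferrin receptor, -0.41, SE 0.13). Which species' RNA bound these human probes was not tested, so their values are not read as amounts of a cell type. The part of these cell types in the HBA2 and HBD differences was not tested either.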

How the data were processed

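Total RNA from 6 tumors was measured on 1-color human expression arrays. The authors scanned them with Agilent Feature Extraction (version 10.7.1.1 per the file headers, 9.5.1.1 per the labels), and the deposited processed signal is a background-subtracted intensity on a linear scale. The deposited p-value of each spot states whether its signal differs from background, and a deposited score of 0 or 1 flags signals well above background and outliers. Arrays have no read depth, and their number limits the precision. Control spots and 1398 outlier spot values were left out, no spot was saturated, spots of a probe were averaged, and log2 values were quantile normalized. Probes needed a detection p-value under 0.05 on every array, taken as the median over their spots. Control and DFX tumors were compared with limma 3.58.1 in R 4.3.3 (lmFit, eBayes, Benjamini-Hochberg over 31803 probes), tested on simulated data. All listed alternatives were run. Coordinates are the array's own annotation (hg19), and all 9 symbols matched RefSeq GRCh38.p14. The globin genes and the marker lists were chosen with earlier results of these data known. Named beside the globin probes were list genes that were called or did not overlap, listed markers always reported, and the 5 genes most correlated with HBA2; the 2 brightest genes and the extreme changes of each list were also computed and are mostly left out for space, and 1 gene of the always reported markers is not reported here. Same-numbered control and DFX tumors did not deviate together (r = 0.03, 0.03 and 0.02), so the numbers were not treated as pairs.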

Additional observations from a re-analysis of the deposited data

How the results depend on the processing

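The number of tested globin probes with an unadjusted p under 0.05 was 3. It ranged from 3 to 4 over 20 alternatives (3 to 4 when single arrays were left out). Both bright HBA2 probes and the HBD probe were in it each time. Where a further probe was called, it was HBZ A_33_P3252534, higher with DFX and well above background on no array. Without control 2 it was instead the dim HBA2 probe A_24_P142305, lower with DFX. The replicate block, which treats same-numbered tumors as pairs, gave 3, and since the numbers do not pair the tumors this is a check only. The log2 difference of HBA2 A_23_P26457 stayed between -2.04 and -1.80, that of A_33_P3258362 between -2.12 and -1.82 and that of HBD between -1.24 and -0.63. The median of the tested globin probes ran from -0.21 to -0.05, and median scaling moved the median of all probes to -0.10. Over the whole array the count of 2675 became 1418 with the slide column as a block and 4213 with array quality weights. It was 4927 by the Kruskal-Wallis test and 1889 to 2717 when single arrays were left out. With 3 tumors per group, the Kruskal-Wallis p falls under 0.05 only where the groups do not overlap. The count by that test is therefore the count of probes without overlap, and the cause of the other changes was not tested. For erythroid genes other than globins the count of 4 became 2 to 5 when single arrays were left out, lowest without DFX 1, and 8 when any tested probe of a gene could be called, an alternative chosen after seeing the data. Their median ran from -0.05 (median scaling) to 0.08. After adjustment, 0 globin probes passed, and both bright HBA2 probes passed in 6 of 20 alternatives. Of these 20, the Kruskal-Wallis test could pass no probe. Every probe without overlap shares its smallest p, which lies just under 0.05 before adjustment. Probes near background have the least reliable differences.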
